A study of Rattus norvegicus with 36 samples.

Results

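A set of 7 genes outside the usual markers of acute kidney injury was followed through every rat of a study of ischemic and toxic injury in the rat kidney. They were Csrp3, Cgn, Nefm, Pvr, Itpkc, Trib1 and Rdm1. Members were taken by the gene symbol of the array annotation and because earlier results of these data had shown strong rises over normal kidney in them. Together they had 8 probes, 2 of them for Pvr, of 9911 probes and 6444 gene symbols on the array. All 8 passed the filter on dim probes. The rises over normal rats chose the genes, so those values are given as a description with no test, and no threshold of size was part of the choice.

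The study used 36 one-colour CodeLink oligonucleotide arrays and kidney RNA of 31 male rats aged 6 to 8 weeks, in 9 groups. Normal rats numbered 5 and were untreated. Ischemia groups had 40 min without renal blood flow and were killed after 2 h (4 rats) or 8 h (3 rats), and another ischemia group of 3 rats at 2 h also received αMSH, the alpha form of melanocyte stimulating hormone, at 50 µg per rat. This peptide dampens inflammation. Mercuric chloride, a metal toxic to the proximal tubule, was given at 4 mg/kg and studied at 2 h or 8 h (3 rats each), and cisplatin, a platinum drug toxic to the tubule, at 20 mg/kg and studied at 2 h (3 rats). As controls there were 3 sham-operated rats (40 min of surgery without ischemia, killed at 8 h) and 4 volume-depleted rats. The latter had the loop diuretic furosemide (20 mg/kg, repeated at 8 h) and a diet low in sodium, and were killed at 24 h. There was no sham group at 2 h, so at that time surgery and ischemia cannot be told apart.

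A level below is the intensity of a probe as a multiple of the median of its array, with values under 0.1 set to 0.1 (the floor). A change is the mean log2 level minus that of the normal rats of the same array lot, with its standard error (SE) from limma, a linear model fitted to all probes. Lot 2 held the sham rats, the cisplatin rats, the mercuric chloride rats at 8 h and 2 normal rats, and lot 1 held all others with 3 normal rats. This division is an assumption, drawn from how the normal rats are numbered. Under it, 47 probes were missing on every array of lot 2 and on none of lot 1, and 8 the other way. A probe was called where its Benjamini-Hochberg adjusted p over all probes was under 0.05. Between 70 and 172 probes were missing per array, and 1.66% to 12.96% of probes lay at the floor. The array of rat 3 of the 8 h ischemia group, with the lowest share at the floor, stood apart from the others of its group, and the deposited values of sham rat 3 were moved by 2 lines to meet the probe names. Where the groups lie in different lots, a difference between them is a difference of their changes. The p-values measure the spread between rats, and in RNA of whole kidney tissue fewer cells of a type and less RNA per cell cannot be told apart.

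As background, the genes have unlike roles. Csrp3 encodes the muscle LIM protein of cardiac and skeletal muscle, which sits at the Z disc. Cgn encodes cingulin, which ties the tight junctions of epithelia to the actin and myosin below them, and Nefm the medium subunit of neurofilaments, the intermediate filaments of axons. Pvr encodes the poliovirus receptor, a nectin-like adhesion molecule that is also a ligand for receptors of natural killer and T cells. Itpkc is a kinase that phosphorylates inositol trisphosphate, the messenger that releases calcium from internal stores. Trib1 is a pseudokinase that brings a ubiquitin ligase to C/EBP transcription factors, and Rdm1 is a protein with an RNA recognition motif and a motif shared with the recombination protein Rad52. Tubular cells of the injured kidney lose polarity and junctions, spread over bare basement membrane and later divide.

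For 3 of the 7 genes, the RefSeq promoter table of the rat assembly GRCr8 held the 250 bases before the annotated start. They are printed to show what lies upstream of Pvr, Itpkc and Cgn, which were among the genes with the largest rises after ischemia. Each runs 5′ to 3′ in the direction of the gene, which is the minus strand in all 3, and capitals mark letters that match one of the motifs named below. They lie at chr1:88704642-88704891 for Pvr, chr1:91650183-91650432 for Itpkc and chr2:185023636-185023885 for Cgn. Csrp3, Rdm1, Nefm and Trib1 are named only.
Pvr: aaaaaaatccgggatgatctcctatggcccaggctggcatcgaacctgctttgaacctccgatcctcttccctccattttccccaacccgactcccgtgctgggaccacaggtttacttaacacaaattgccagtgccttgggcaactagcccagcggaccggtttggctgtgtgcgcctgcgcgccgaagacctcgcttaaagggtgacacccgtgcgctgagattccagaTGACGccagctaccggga
Itpkc: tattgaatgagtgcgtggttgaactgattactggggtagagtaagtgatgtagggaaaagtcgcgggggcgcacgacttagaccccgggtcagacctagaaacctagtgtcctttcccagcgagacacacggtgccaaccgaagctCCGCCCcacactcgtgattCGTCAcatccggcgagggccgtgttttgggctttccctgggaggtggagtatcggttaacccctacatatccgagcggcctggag
Cgn: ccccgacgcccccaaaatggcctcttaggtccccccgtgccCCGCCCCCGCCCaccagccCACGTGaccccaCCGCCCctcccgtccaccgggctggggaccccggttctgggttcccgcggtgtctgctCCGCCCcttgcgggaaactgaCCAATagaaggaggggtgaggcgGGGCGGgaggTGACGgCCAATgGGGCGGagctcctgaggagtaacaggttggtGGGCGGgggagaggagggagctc

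All 3 sequences held the half-site of the cyclic AMP response element, TGACG or its reverse complement, which 18.2% of the 33469 promoters of the same length in the table hold. It began 18 bases before the start in Pvr, 85 bases before it in Itpkc and 66 bases before it in Cgn. A GC box, GGGCGG on either strand, was found 1 time in Itpkc and 7 times in Cgn, with a share of 30.5% over all promoters. Cgn also held 1 E box (CACGTG, 5.59% of promoters) and 2 CCAAT boxes (CCAAT, 34.0%). No match was found in the 3 windows for an AP-1 site (TGANTCA, 6.34%), a heat shock element core (GAANNTTC, 7.23%) or a CArG box (1.5%). All motifs were searched on both strands and were listed with these sequences in view, and a match is a description of letters only. The AP-1 site and the half-site share their first letters, TGA, and none of the matches printed overlap except neighbouring GC boxes of Cgn, which touch.

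Csrp3, the muscle LIM protein, gave no signal above the floor in normal kidney and a clear one after ischemia. In all 5 normal rats it lay at the floor of 0.1. In the 4 rats at 2 h of ischemia its levels were 1.1, 1.26, 1.51 and 1.16, and with αMSH 1.49, 1.62 and 1.28. Those of the 8 h ischemia group were 1.23, 0.783 and 0.639. All 10 ischemic rats were thus above every other rat. The change was 3.64 ± 0.28 (SE, n = 4) at 2 h, at least 12.5-fold, and 3.09 ± 0.30 (n = 3) at 8 h, at least 8.51-fold. The size of these bounds follows the floor, with 4.247 and 2.643 for the 2 h change at floors of 0.05 and 0.2. The 3 rats at 2 h of mercuric chloride lay at the floor, and so did 1 cisplatin rat and 1 sham rat. Rat 1 of the 8 h mercuric chloride group had a level of 0.347, and the other 2 had 0.14 and 0.133. Volume depletion rats lay between 0.148 and 0.179, a little above the floor.

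Cgn, the tight junction protein, was at 0.143 to 0.162 in the normal rats of lot 1 and at 0.172 and 0.178 in those of lot 2. Its levels at 2 h of ischemia were 1.29, 1.29, 1.3 and 1.68, and with αMSH 2, 1.45 and 1.5. The 8 h ischemia rats had 3.46, 3.1 and 2.84. The 3 groups with ischemia did not overlap with any other group, and the 8 h rats were above all 2 h rats. The change was 3.16 ± 0.17 (8.96-fold, n = 4) at 2 h and 4.34 ± 0.18 (20.2-fold, n = 3) at 8 h. After mercuric chloride, cisplatin and sham surgery the levels ran from 0.158 to 0.287, and no change there exceeded 0.53 ± 0.20, that of cisplatin.

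Nefm, the neurofilament subunit, went with another pattern. Its levels were 0.433, 0.204 and 0.291 in the lot 1 normal rats and 0.164 and 0.171 in the lot 2 normal rats, a spread that reaches into several treated groups. The rats given mercuric chloride 8 h before had levels of 0.671, 1.05 and 1.02, all above every normal rat, and a change of 2.42 ± 0.36 (5.35-fold, n = 3). That change is taken from the 2 lot 2 normal rats, which lay below those of lot 1. It was 1.60 with a term for the rat number in place of the lot term. In the 8 h ischemia group the levels were 0.348, 0.701 and 0.838, a change of 1.00 ± 0.32 (2.00-fold, n = 3), with rat 1 below normal rat 1. At 2 h the 4 ischemia rats ran from 0.173 to 0.264 and the 3 mercuric chloride rats from 0.18 to 0.248, within the range of all 5 normal rats. The lowest of each group lay below the normal rats of their own lot, lot 1, and the changes were -0.46 ± 0.30 and -0.52 ± 0.32. Rats with αMSH were spread from 0.174 to 0.495.

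Pvr, the surface receptor, had the largest change of the members at 8 h of ischemia. Its brighter probe stood at 0.187, 0.135 and 0.229 in the lot 1 normal rats and at 0.3 and 0.305 in the lot 2 normal rats. Levels were 1.1, 1.52, 1.74 and 2.36 at 2 h of ischemia, 1.88, 1.58 and 1.7 with αMSH, and 4.57, 4.47 and 6.3 at 8 h. The change was 3.18 ± 0.21 (9.04-fold, n = 4) at 2 h and 4.81 ± 0.22 (28.1-fold, n = 3) at 8 h. Pvr was also higher after the toxicants. At 8 h of mercuric chloride the levels were 1.16, 1.3 and 1, a change of 1.92 ± 0.25 (3.78-fold), and after cisplatin they were 0.481, 0.795 and 0.711, a change of 1.10 ± 0.25 (2.14-fold). At 2 h of mercuric chloride the 3 rats lay between 0.293 and 0.347, a change of 0.82 ± 0.22 from the lot 1 normal rats. That change is 0.51 with no lot term, since the lot 2 normal rats reach 0.305. Over the 8 treated groups the order from the highest change was ischemia at 8 h, ischemia with αMSH, ischemia at 2 h, mercuric chloride at 8 h, cisplatin, mercuric chloride at 2 h, volume depletion and sham. The 2 groups at 2 h of ischemia overlapped, as did neighbours from cisplatin down.

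The second Pvr probe lay at or just above the floor in normal rats (0.1 to 0.11), so its folds lean on the floor. Its changes were 3.07 ± 0.27 at 2 h of ischemia, 4.12 ± 0.28 at 8 h and 2.07 ± 0.32 at 8 h of mercuric chloride, and 2.10 in place of 3.07 with a floor of 0.2. Over the 26 treated rats the changes of both probes had a Pearson r of 0.958, given as a description. They parted in rat 3 of the 8 h ischemia group, the array that stood apart. There the second probe read 0.85 against 2.58 and 2.57 in the other 2 rats, while the brighter probe was highest, at 6.3.

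Itpkc, the kinase, was at 0.323 to 0.329 in the lot 1 normal rats and at 0.439 and 0.327 in lot 2. Its levels at 2 h of ischemia were 3.42, 3.47, 2.77 and 3.1, with αMSH 4.05, 3.18 and 3.81, and at 8 h 2.64, 2.39 and 1.7. The 8 h rats thus lay below all 2 h rats and above every rat without ischemia. The change was 3.29 ± 0.16 (9.75-fold, n = 4) at 2 h and 2.76 ± 0.17 (6.77-fold, n = 3) at 8 h. At 2 h of mercuric chloride the change was 0.11 ± 0.17, after cisplatin 0.09 ± 0.19 and at 8 h of mercuric chloride 0.52 ± 0.19 (levels 0.52 to 0.573).

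Trib1, the pseudokinase, had smaller changes after ischemia than Csrp3, Cgn, Pvr and Itpkc, and levels below normal at 2 h of mercuric chloride. Normal rats lay between 0.722 and 1.05. Levels were 2.18, 2.27, 2.55 and 2.72 at 2 h of ischemia, 1.96, 1.69 and 2.43 with αMSH, and 1.76, 1.65 and 3.06 at 8 h, where rat 3 was the highest. All of these exceeded every normal rat, with changes of 1.35 ± 0.18 (2.55-fold, n = 4) at 2 h and 1.13 ± 0.20 (2.18-fold, n = 3) at 8 h. At 2 h of mercuric chloride the levels were 0.458, 0.388 and 0.32, all below every normal rat, and the change was -1.30 ± 0.19 (2.47-fold lower). By 8 h of mercuric chloride they were 0.577, 0.674 and 0.608, with a change of -0.37 ± 0.22. Cisplatin rats had 1.12, 1.49 and 1.26, a change of 0.68 ± 0.22.

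Rdm1, which shares a motif with Rad52, stood apart in a single group. Its levels in the 8 h ischemia rats were 11.3, 21.2 and 12.9, a change of 3.75 ± 0.21 (13.4-fold, n = 3). In all other 28 rats the level lay between 0.646 and 1.33, and normal rats spanned 0.943 to 1.33. The change at 2 h of ischemia was -0.24 ± 0.20 and at 8 h of mercuric chloride -0.43 ± 0.24. Below ischemia at 8 h, neighbouring groups in the order of changes overlapped in every case.

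**Figure D1:**
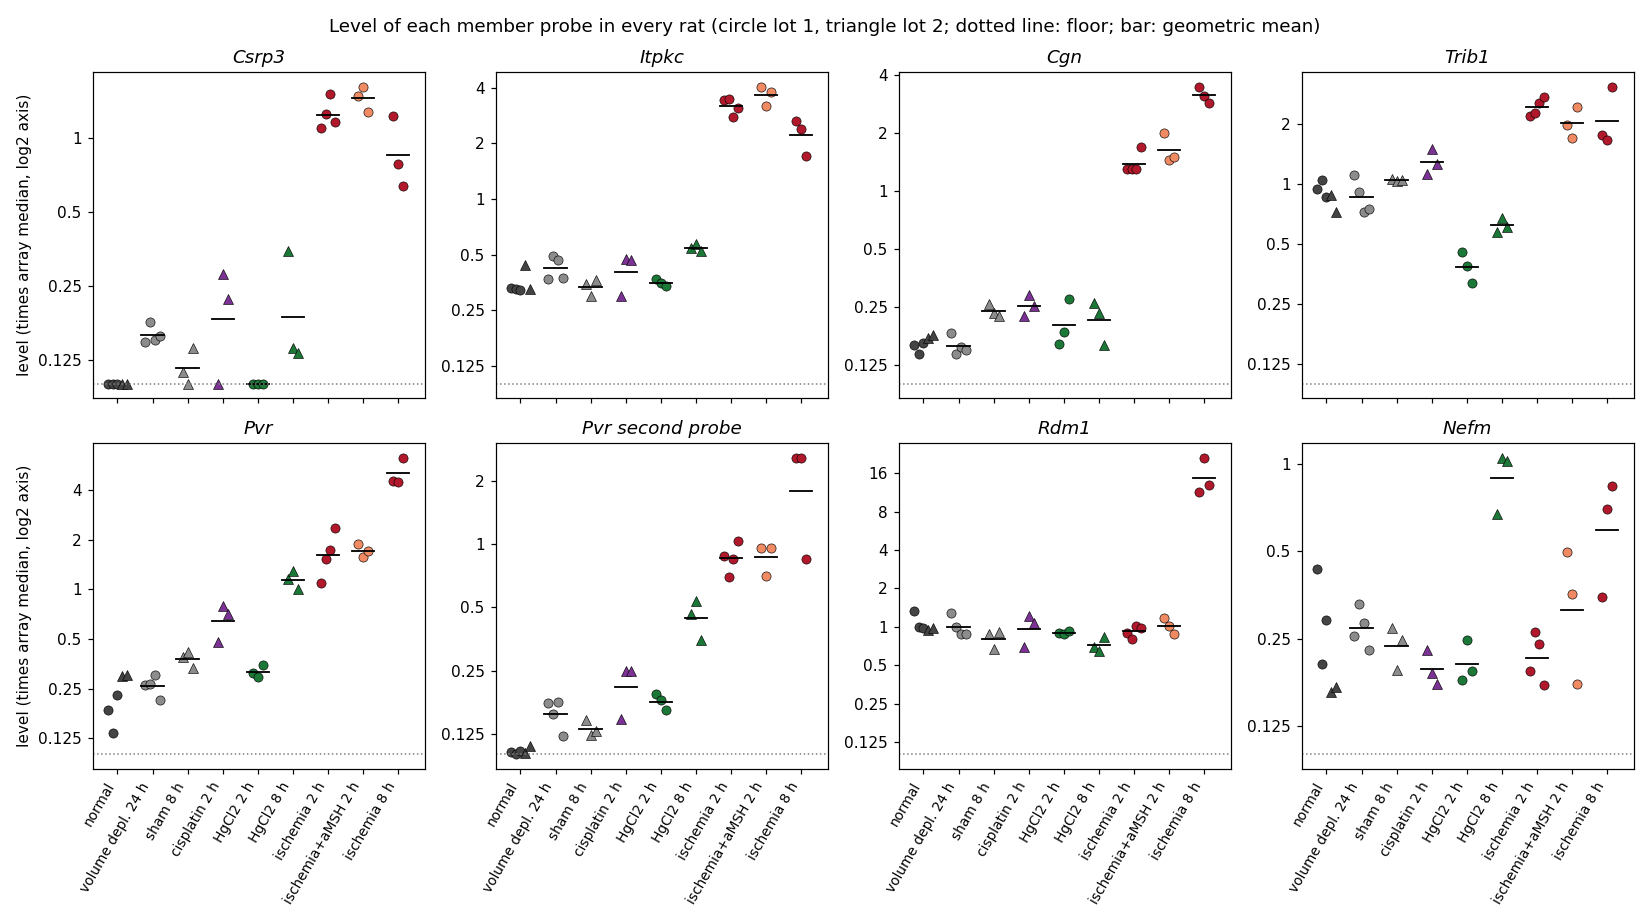
Level of each of the 8 probes (multiple of the array median, log2 axis) in every rat by group. Circles are rats of lot 1 and triangles rats of lot 2, the dotted line is the floor of 0.1 and the bar the geometric mean of a treated group. Csrp3, Itpkc and Cgn are high in the 10 rats with ischemia, Rdm1 is high in the 3 rats at 8 h of ischemia (11.3 to 21.2), and Nefm is highest at 8 h of mercuric chloride (0.671 to 1.05).

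Counted over the groups, 5 of the 7 genes were called higher than normal at 2 h of ischemia, where 7.35% of all tested probes were called higher. The 2 that were not were Rdm1 and Nefm. With αMSH the same 5 genes were called (6.66% of all probes), and at 8 h of ischemia all 7 (20.8%). At 2 h of mercuric chloride Pvr was called higher (3.07%) and Trib1 lower (4.61%), at 8 h of mercuric chloride Pvr and Nefm higher (5.25%), and after cisplatin Pvr (0.538%). None was called after sham surgery, with 0.348% of probes called in either direction, or after volume depletion, with 0.169%. In limma 1 of the 7 genes after sham surgery and 3 after volume depletion had an unadjusted p under 0.05. Over all tested probes 537 of 9489 after sham surgery and 565 of 9464 after volume depletion had one. After sham surgery this was Cgn (0.45 ± 0.20), and not Nefm (0.50 ± 0.36). After volume depletion these were the changes of Itpkc (0.38 ± 0.16), Csrp3 (0.66 ± 0.28) and Pvr (0.53 ± 0.21). That of Csrp3 is set by the floor, with 1.267 at a floor of 0.05 and 0.0 at 0.2. The genes were chosen on these comparisons, so nothing is read from the counts. The comparisons within a lot share their normal rats.

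**Figure D2:**
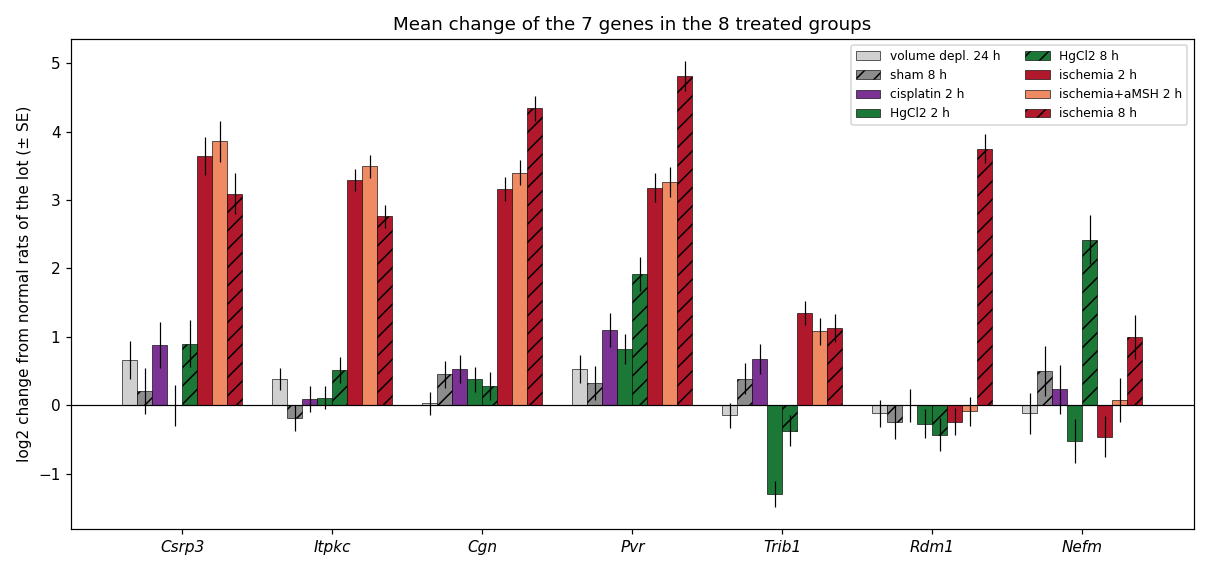
Mean log2 change of the 7 genes from the normal rats of the lot in the 8 treated groups, with bars for the mean and lines for the SE from limma. Pvr reaches 4.81 and Cgn 4.34 at 8 h of ischemia, Trib1 lies at -1.30 at 2 h of mercuric chloride, and sham and volume depletion bars stay at or below 0.66 with the floor at 0.1.

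Whether αMSH altered these genes was asked with 3 rats given αMSH and 4 without at 2 h of ischemia, a comparison that uses no normal rats. None of the 7 passed in limma, each with an adjusted p of 1.0, none had an unadjusted p under 0.05, and 0% of 9456 probes were called (342 at an unadjusted p under 0.05). The difference was 0.22 (95% interval -0.36 to 0.81) for Csrp3, 0.21 (-0.12 to 0.54) for Itpkc and 0.24 (-0.11 to 0.59) for Cgn. For Pvr it was 0.08 (-0.35 to 0.51), for Rdm1 0.15 (-0.26 to 0.55) and for Trib1 -0.27 (-0.65 to 0.10). The widest interval was that of Nefm, -0.08 to 1.16 around 0.54.

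The members differed more by time after ischemia, compared between 3 rats at 8 h and 4 at 2 h of the same lot. The genes were chosen as high in at least 1 injury group, which favours differences between groups, and the same arrays are used, so the tests below are not independent of the choice. In limma 4 of the 7 genes were higher at 8 h (20.5% of all probes) and 1 was lower (17.2%). Rdm1 was higher by 3.99 ± 0.20 (15.9-fold, adjusted p = 9.69e-13), Pvr by 1.64 ± 0.21 (3.11-fold, adjusted p = 1.07e-06), Cgn by 1.18 ± 0.17 (2.26-fold, adjusted p = 6.63e-06) and Nefm by 1.46 ± 0.30 (2.74-fold, adjusted p = 4.19e-04). The second Pvr probe differed by 1.05 ± 0.27 (adjusted p = 0.00273), and by 1.58 without rat 3 of the 8 h group. Itpkc fell by 0.53 on the log2 scale (SE 0.16, adjusted p = 0.0113). Without rat 3 of the 8 h group the Itpkc difference was -0.34 with an adjusted p of 0.106, so that call rests on the array that stood apart. Csrp3 was at -0.55 ± 0.28 (adjusted p = 0.129). It was at -0.82 (adjusted p = 0.0359) without rat 1 of the 8 h group, and at -0.35 (adjusted p = 0.426) without rat 3. Trib1 was at -0.22 ± 0.18 (adjusted p = 0.352), or -0.50 (adjusted p = 0.0199) without rat 3 of that group.

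Ischemia was then set against mercuric chloride at the same times, with the same limit on the tests. At 2 h, within lot 1, 5 of 7 genes were higher after ischemia (8.09% of all probes). Csrp3 was at least 12.5-fold higher (adjusted p = 1.43e-09 in limma), Itpkc 9.06-fold (adjusted p = 6.83e-13), Cgn 6.87-fold (adjusted p = 2.72e-11), Trib1 6.29-fold (adjusted p = 1.5e-10) and Pvr 5.13-fold (adjusted p = 1.2e-08). Rdm1 (0.03 ± 0.20) and Nefm (0.06 ± 0.30) did not pass. At 8 h, across lots, 6 of 7 were higher after ischemia (6.77%), among them Rdm1 (4.17 ± 0.32, 18.1-fold) and Cgn (4.06 ± 0.27, 16.7-fold). Nefm was at -1.42 ± 0.48, lower after ischemia, with an adjusted p of 0.0545. It passed without rat 3 (adjusted p = 0.0189) or rat 2 (0.0469) of the 8 h ischemia group, without normal rat 2 (0.0289) and without rat 1 of the mercuric chloride group (0.0397), and was at -0.60 with no lot term. From 2 h to 8 h of mercuric chloride, across lots, Nefm passed, with a difference of 2.94 ± 0.48 (7.69-fold, adjusted p = 0.00192, 0.539% of all probes higher). With sham rat 3 as deposited its adjusted p was 0.0505, and with no lot term the difference was 2.12. Trib1 (0.93 ± 0.29) and Pvr (1.10 ± 0.33) had adjusted p values of 0.163 and 0.142 there. With no lot term both passed, Trib1 at 0.69 (adjusted p = 0.0174) and Pvr at 1.86 (adjusted p = 3.78e-05), and Pvr also with a floor of 0.2 (adjusted p = 0.0317).

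Differences across lots contain the change from normal that chose the genes, so nothing is read from the calls and counts across lots, here or above. Against cisplatin at 2 h, across lots, Itpkc (9.16-fold), Cgn (6.19-fold), Csrp3 (6.80-fold) and Pvr (4.23-fold) were higher after ischemia, 4 of 7 genes against 1.52% of all probes. Pvr was 1.32 higher with no lot term, in place of 2.08, and 1 of the 3 cisplatin rats lay at the floor for Csrp3, so that fold leans on the floor. Trib1 was at 0.67 ± 0.28, with an adjusted p of 0.351 in limma, and at 0.92 with an adjusted p of 6.33e-04 with no lot term. Sham surgery was the control at 8 h. Compared with it, 5 of 7 genes were higher after ischemia (11.9%), among them Pvr (22.4-fold), Rdm1 (16.0-fold) and Cgn (14.9-fold), across lots. For Pvr the log2 difference was 4.49, and 3.73 with no lot term. Trib1 (0.74 ± 0.29, adjusted p = 0.0717) and Nefm (0.50 ± 0.48, adjusted p = 0.516) did not pass, and with no lot term both did, at 0.99 and 1.32. Trib1 also passed without rat 1 (adjusted p = 0.0427) or rat 2 (0.0285) of the 8 h ischemia group, and was at 0.46 without rat 3. Mercuric chloride at 8 h was also set against the sham rats of the same lot. The labels name no surgery for the mercuric chloride rats, so this difference mixes toxicant and surgery. In limma Nefm (3.79-fold, adjusted p = 1.58e-04), Pvr (3.02-fold, adjusted p = 1.77e-05) and Itpkc (1.62-fold, adjusted p = 0.00668) were higher after mercuric chloride (5.87%). Trib1 was lower there, at -0.76 ± 0.20 (adjusted p = 0.0095, 7.18% of all probes lower). From normal rats the changes of Itpkc and Trib1 at 8 h of mercuric chloride were 0.52 ± 0.19 and -0.37 ± 0.22, and neither was called. Cisplatin rats were studied at 2 h with no surgery labelled and sham rats at 8 h, so time and surgery differ between them too. Between cisplatin and sham rats 0 of 7 passed in limma (0.0105% of all probes). At an unadjusted p under 0.05 there were 2 members, and 705 of all 9486 tested probes. Without cisplatin rat 1 Pvr (0.98, adjusted p = 0.016) and Csrp3 (1.10, adjusted p = 0.0248) were called.

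**Figure D3:**
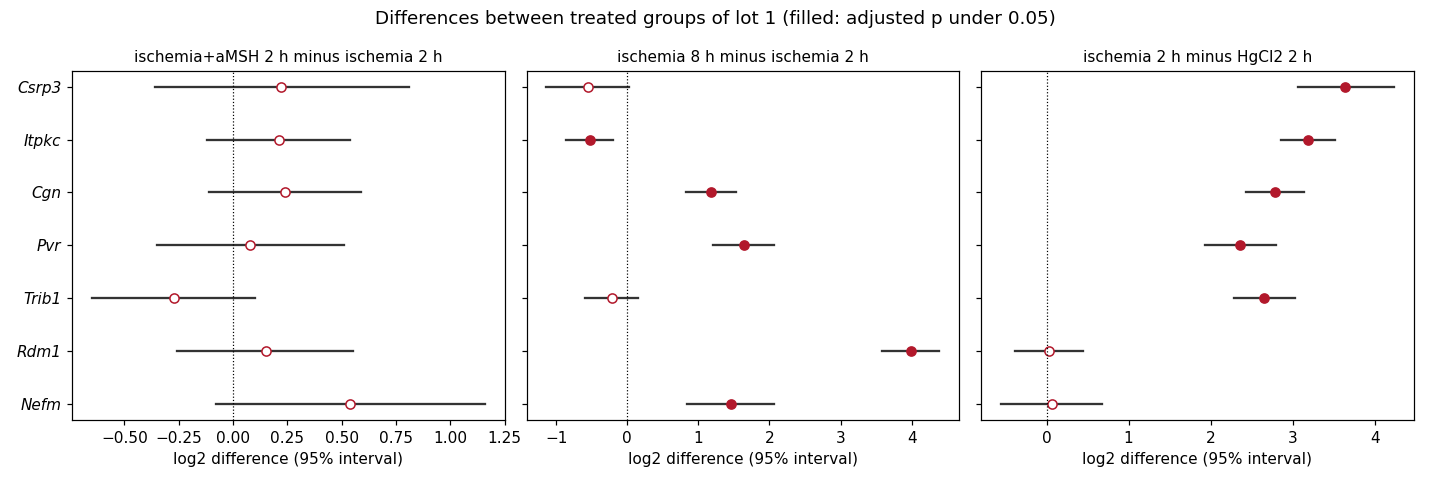
Log2 differences of the 7 genes between treated groups of lot 1, as points with their 95% intervals on a horizontal axis whose range differs between panels. Filled points have an adjusted p under 0.05 in limma. With and without αMSH every interval holds 0, from 2 h to 8 h of ischemia Rdm1 is farthest to the right at 3.99, and against mercuric chloride 5 genes lie at 2.36 or above.

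How alike the members ran was described by Pearson r of their changes over the 26 treated rats, which share arrays, lots and normal rats. This r pools the treated groups, so gaps between groups enter it, and the genes were chosen as high in an injury group. It does not show whether rats within a group ran alike. Csrp3 and Itpkc had the highest value, 0.97, and Pvr and Cgn 0.94. Nefm had values between -0.16 and 0.22 with the other 6. Among 5952 named genes, those most like Csrp3 were Itpkc, Edn1 (0.953), which encodes the vasoconstrictor endothelin, and Sertad2 (0.945). Edn1 had changes of 2.35 at 2 h and 2.19 at 8 h of ischemia and of 0.06 at 8 h of mercuric chloride. Itpkc had the same neighbours, with Sertad2 at 0.973. Cgn and Pvr shared Fgl2, a fibrinogen-like protein, with r of 0.976 and 0.953, and its change grew from 2.51 at 2 h to 3.46 at 8 h of ischemia. The others were Enc1 and Pdp1 (both 0.961) for Cgn, and Anxa1, the lipid-binding annexin, and Ripk3, a kinase of necroptosis (both 0.952), for Pvr.

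For Rdm1 the nearest genes were F10, coagulation factor X (0.951), Ehd4 (0.940) and Nop14 (0.936). All had their large change at 8 h of ischemia, of 1.60, 1.45 and 1.31, with changes of -0.22 to 0.20 elsewhere. For Trib1 they were Arl4a (0.901), Lgalsl (0.894) and Actg2, a smooth muscle actin (0.889). For Nefm they were Ap1ar (0.868), Gdnf, a neurotrophic factor (0.852), and Slc6a9, a glycine transporter (0.841), with changes of 1.13, 0.95 and 1.51 at 8 h of mercuric chloride. These were the weakest neighbours of any member.

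Relatives and partners of each gene came from lists without the members. Of 21 striated muscle genes 2 rose and none fell at 2 h of ischemia, and 1 rose and 6 fell at 8 h. The riser at both times was Csrp1, a LIM protein of smooth muscle, at 1.03 ± 0.13 and 0.49 ± 0.14 (adjusted p = 1.73e-06 and 0.00463 in limma). Csrp2, the third member of that family, was at 0.23 ± 0.11 at 2 h and fell by 0.53 at 8 h. Myl3 (2.02-fold) and Tnnc2 (2.00-fold), of the contractile apparatus, and Casq1 (1.91-fold), a calcium store protein, fell at 8 h. The list median was 0.03 at 2 h and -0.05 at 8 h, against -0.06 and 0.01 over all probes, of which 7.35% and 20.8% rose and 7.36% and 20.8% fell.

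Of 24 tight junction genes other than Cgn 5 rose and none fell at 2 h of ischemia, and 12 rose and 3 fell at 8 h. Of all probes 7.35% rose at 2 h, and 20.8% rose and 20.8% fell at 8 h. Their median was 0.10 at 2 h and 0.48 at 8 h. Cldn7 and Cldn3, claudins of the junctional strands, stood at 2.85-fold and 2.89-fold at 2 h and at 9.25-fold and 4.77-fold at 8 h. The adherens junction protein Cdh1 rose 1.72-fold and then 2.98-fold. Tjp1, a scaffold that binds cingulin, was at 0.04 ± 0.19 at 2 h and rose by 0.82 ± 0.20 at 8 h (adjusted p = 0.00196 in limma). Ocln, the strand protein occludin, was at -0.35 ± 0.17 and -0.17 ± 0.18 and did not pass. Cldn10, which forms paracellular ion pores, fell at 8 h by 2.22 (SE 0.51). At 8 h of mercuric chloride 2 of the 24 rose and none fell (5.25% and 5.63% of all probes), with Cldn7 at 0.31 ± 0.22 and Cldn3 at -0.34 ± 0.33.

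Of 11 intermediate filament genes other than Nefm 3 rose at 2 h of ischemia, 5 rose at 8 h and none fell. Prph, the peripherin of peripheral neurons, had mean changes of 2.27 ± 0.44 (4.83-fold) at 2 h of ischemia, 1.18 ± 0.47 at 8 h and 1.63 ± 0.52 at 8 h of mercuric chloride. Its levels ran from 3.81 to 22.3 at 8 h of ischemia, against 4.51 to 6.75 in normal rats. After volume depletion they ran from 12 to 16.6, also above normal. Vim, the mesenchymal filament vimentin, rose by 1.08 ± 0.14 and 1.25 ± 0.15 after ischemia and was at 0.21 ± 0.17 at 8 h of mercuric chloride. Lmnb1, a nuclear lamin, rose 2.01-fold and Krt15, a keratin, 1.89-fold at 8 h of ischemia. Nefl, the light neurofilament subunit, was at 0.13 ± 0.18, 0.27 ± 0.20 and -0.00 ± 0.22 in these groups and did not pass. Nefh, the heavy subunit, lay at the floor in all 31 rats. Over all probes 7.35% rose at 2 h and 20.8% at 8 h of ischemia. At 8 h of mercuric chloride, where Nefm was highest, 1 of the 11 rose and 1 fell (5.25% and 5.63% of all probes).

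Of 7 nectins and other Pvr partners 2 rose at 2 h of ischemia (7.35% of all probes), 4 rose at 8 h (20.8%) and none fell. The adhesion molecule Nectin2, which shares immune receptors with Pvr, rose 2.03-fold and then 4.49-fold, and was at 0.37 ± 0.22 at 8 h of mercuric chloride. Itgav, a vitronectin-binding integrin, rose 1.85-fold and 2.78-fold. Pdgfrb, a growth factor receptor of mesenchymal cells, and Afdn, which links nectins to actin, rose at 8 h (1.52-fold and 1.31-fold). Nectin1 was at -0.00 ± 0.15 and -0.34 ± 0.16 and did not pass.

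Of 27 inositol phosphate signalling genes other than Itpkc 2 rose and 7 fell at 2 h of ischemia, and 5 rose and 13 fell at 8 h, with a median of -0.28 at 8 h against 0.01 over all probes. Of all probes 7.36% fell at 2 h and 20.8% at 8 h, with 7.35% and 20.8% higher. Ipmk, another inositol phosphate kinase, fell by 0.66 at 2 h and by 1.77 (3.41-fold lower) at 8 h. Plcb1, a phospholipase that makes inositol trisphosphate, fell by 2.05 (4.14-fold lower) at 8 h. Itpr3, a receptor for it, rose 1.37-fold and 2.39-fold. Ppp3ca, the catalytic subunit of calcineurin, rose 1.49-fold at 8 h of ischemia and 1.76-fold at 8 h of mercuric chloride. Itpka, a relative of Itpkc, had SEs of 1.40 or more and cannot be placed.

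Of 9 partners of Trib1 2 rose at 2 h of ischemia, and 6 rose and 1 fell at 8 h. Their median was 0.57 at 8 h against 0.01 over all probes. Of all probes 7.35% rose at 2 h, and 20.8% rose and 20.8% fell at 8 h. Cebpd, a C/EBP transcription factor of the acute response, rose 3.55-fold and 5.19-fold after ischemia and 3.96-fold at 8 h of mercuric chloride. Rela, a subunit of NF-κB, rose 1.73-fold and 1.72-fold, and Map2k1, a kinase of the mitogen-activated pathway, 2.22-fold at 8 h. Hnf4a, a hepatocyte and proximal tubule factor, fell by 1.38 (2.60-fold lower) at 8 h. Of 16 DNA repair genes other than Rdm1 2 rose and 3 fell at 2 h (7.35% and 7.36% of all probes). At 8 h 5 rose and 3 fell, where 20.8% of all probes rose and 20.8% fell. Ercc1, an excision repair nuclease subunit, rose 1.84-fold and 2.61-fold (adjusted p = 0.0499 and 0.0011 in limma), and Pcna, the replication clamp, 1.59-fold and 2.24-fold. Xrcc1, of single-strand break repair, fell at 8 h by 0.94, and Palb2, of recombination repair, at 2 h by 0.82.

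**Figure D4:**
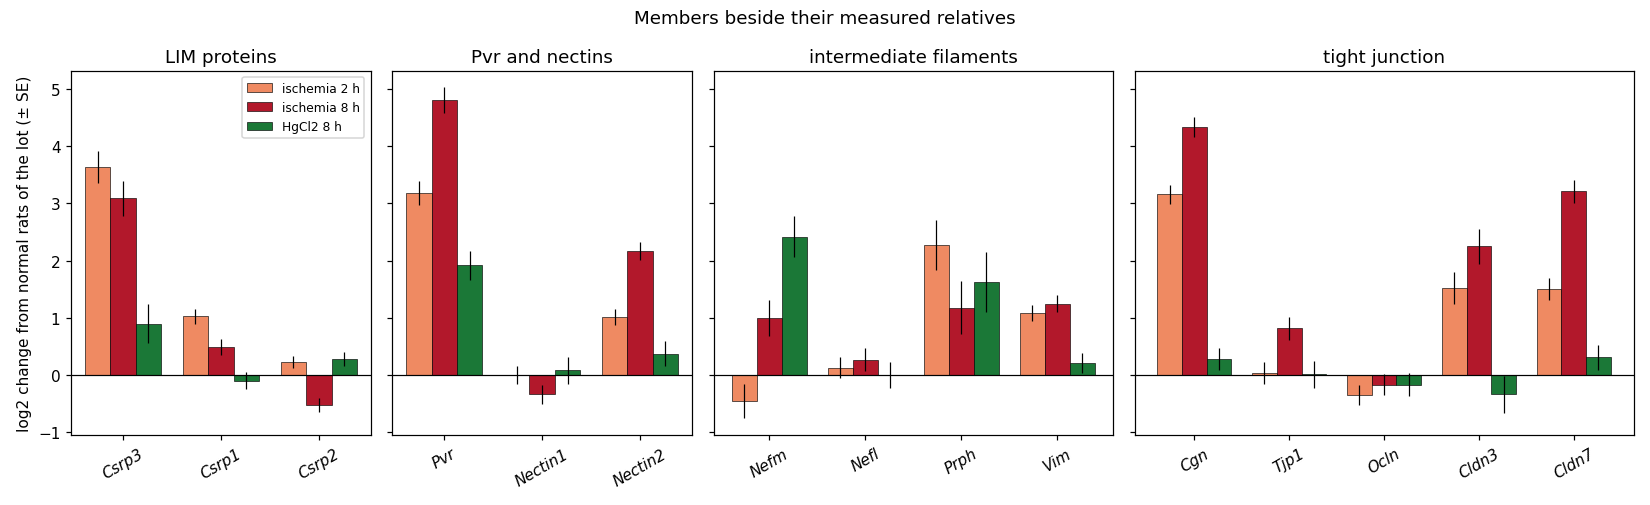
Mean log2 change from the normal rats of the lot (bars, with SE lines) of Csrp3, Pvr, Nefm and Cgn beside measured relatives and partners, at 2 h and 8 h of ischemia and 8 h of mercuric chloride. Csrp3 reaches 3.64 where Csrp1 is at 1.03, Nectin2 and Cldn7 rise with time to 2.17 and 3.21, and Nefm is highest after mercuric chloride, where Nefl is at -0.00.

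Since Csrp3 and Nefm are known from muscle and nerve, the markers of those tissues were summed as levels over the array. The 12 muscle markers added up to 4.97 to 6.43 in normal rats, 4.43 to 5.56 at 2 h of ischemia, 4.86 to 5.25 with αMSH and 3.51 to 4.08 at 8 h. A large part of the sum was Tnnc2, at 2.47 to 3.2 in normal rats and 2.02 to 2.62 at 2 h of ischemia. Of the 12, Mb, Casq2 and Ryr1 lay at the floor in the median rat. The 12 neuronal markers added up to 7 to 9.21 in normal rats, 22.9 to 30.7 at 2 h of ischemia, 22.8 to 28.3 with αMSH, 8.6 to 30.2 after cisplatin, 14.6 to 19 after volume depletion, 7.7 to 25.5 at 8 h of ischemia and 18 to 22.3 at 8 h of mercuric chloride. Most of that sum was Prph. Without it they gave 2.46 to 2.72 in normal rats, 2.41 to 3.14 at 2 h and 3.2 to 3.89 at 8 h of ischemia, and 3.84 to 5.49 at 8 h of mercuric chloride. Their part in the Nefm result was not tested. Of the 12, 7 (Snap25, Stmn2, Syp, Nefh, Vsnl1, Elavl3 and Ina) lay at the floor in the median rat.

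Sums of markers of leukocytes and of the tubule differed from those of normal rats at 8 h of ischemia. The 13 leukocyte markers added up to 21.6 to 30.9 in normal rats, 25.2 to 29.3 at 2 h of ischemia, 40 to 56.6 at 8 h of ischemia and 23.5 to 39.2 at 8 h of mercuric chloride. At 8 h of ischemia 4 of the 12 tested were called higher (20.8% of all probes), with a median change of 0.04 against 0.01 over all probes. Their part in the higher Rdm1, Pvr and Cgn at 8 h of ischemia was not tested. The 15 proximal tubule markers, with Slc22a8 at the floor in all rats, fell from 401 to 648 in normal rats to 227 to 351 at 8 h of ischemia and 237 to 282 at 8 h of mercuric chloride. The 10 distal nephron markers were at 92.7 to 139 in normal rats, 44.6 to 61.8 at 8 h of ischemia and 96.3 to 121 at 8 h of mercuric chloride. Both sums of kidney markers were high in every rat, as the label of kidney tissue would have it. The 8 markers of adrenal gland and fat, tissues that lie against the kidney, gave 2.77 to 4.49 in normal rats and 2.41 to 6.92 in treated rats.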

How the data were processed

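The probes of the 7 genes were read on 36 CodeLink arrays of 31 rats, with biotin-labelled RNA per the labels. The sources used here do not name the scanner software or the background correction. The values deposited by the authors are in an unusual unit, read from the values themselves: 2 raised to the power of an intensity in multiples of about the array median. The 345693 log2 values with at least 9 digits were all whole multiples of 0.0001 within 1e-06. So log2 of a deposited value was read as a linear intensity, and a deposited 0.5 as missing (0.97% of values). Values of sham rat 3 were moved by 2 lines, a decision taken after seeing the data.

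Each intensity was scaled by its array's median, raised to 0.1 where lower, and logged to base 2. The 2 arrays of each of 5 rats were averaged. The deposited description gives lots of 24 and 12 arrays with 3 normal rats each, while the labels give 5 normal rats, so the lots used here rest on an assumption. Probes with at least 3 rats above the floor were fitted with limma 3.58.1 (R 4.3.3; lmFit, eBayes; group and lot; 21 residual degrees of freedom), adjusted by Benjamini-Hochberg over all probes. Probe counts, floors and motif searches used Python 3.11.15. The fit was tested on simulated data.

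The members and lists were chosen with earlier results of these data known. Named were all probes of the members, their closest relatives, up to 4 list genes with the largest called change in an injury group, and for each member the 3 genes with the highest r. A gene with several probes was given by its brightest. The 2 arrays of a rat differed in the members by a median of 0.113 (log2), at most 0.87. The number of arrays limits the precision. Floor, offset, filter, normalization, lot term, duplicate arrays, the order of sham rat 3, arrays left out, a variance trend and a replicate block were tried as alternatives.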

Additional observations from a re-analysis of the deposited data

Results flagged for a closer look

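The highest of the 5 normal rats stood far from the others in 2 members, Rdm1 in rat 1 (1.33, nearest 0.994) and Itpkc in rat 11 (0.439, nearest 0.329). The 2 arrays of rat 11 gave 0.550 and 0.35 for Itpkc, and normal rat 1 is among the arrays that stand apart. Cgn in rat 4 of the 2 h ischemia group was at 1.68, the next rat at 1.3. The threshold for such a gap is one that chance passes in about 1 in 20 groups.

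Changes differed between 8 h and 2 h of ischemia in the limma test of the difference for Rdm1 (3.99), Pvr (1.64, second probe 1.05), Nefm (1.46), Cgn (1.18) and Itpkc (-0.53). Between 8 h and 2 h of mercuric chloride the difference passed for Nefm (2.94, and 2.12 with no lot term).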

How the results depend on the processing

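Of 1416 differences between treated groups recomputed under the alternatives, 1369 stayed on their side of the threshold, 33 came to pass, 13 no longer passed and 1 turned from a call to the opposite sign. Among the 1369 were 26 that passed under neither setting and changed sign. In 6 of them the difference was over 0.4 in size before the setting was altered, and brackets give it afterwards. These were Nefm for ischemia against cisplatin at 2 h (0.13 with no lot term, 0.223 with a replicate block as well) and, with sham rat 3 as deposited, Trib1 for 8 h of ischemia against sham (-0.295), Csrp3 for cisplatin (-1.592) and 8 h of mercuric chloride (-1.572) against sham, and the second Pvr probe for cisplatin against sham (-1.124). The called one was the second Pvr probe at 8 h of mercuric chloride against sham, at -0.038 with sham rat 3 as deposited. As deposited, that array had an r of 0.0652 with the median of the others. With it, probes called against normal at 2 h of ischemia fell from 697 to 227 higher and from 698 to 73 lower. Counts of called members kept within 1.5 times in 285 of 312 cases. At 2 h of mercuric chloride the count of 2 became 1 with a floor of 0.2, with an offset of 0.1 or with no lot term, 0 with sham rat 3 as deposited, and 1 to 2 with a rat left out. At 8 h of mercuric chloride the count of 2 became 6 with no lot term. After cisplatin the count of 1 became 0 with an offset or with sham rat 3 as deposited, 2 with no lot term or without the 3 arrays that stand apart (array 1 of volume depletion rat 1, and those of normal rat 1 and of rat 3 at 8 h of ischemia), and 0 to 2 with a rat left out. From 2 h to 8 h of mercuric chloride the count of 1 became 2 with a floor of 0.2 or without the 3 arrays, 5 with no lot term and 0 with sham rat 3 as deposited. Cisplatin against sham gave 0 to 2 with a rat left out. The cause was not tested.

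Rats were not treated as paired by their numbers. Deviations of same-numbered rats had a median r of 0.018 over 109 pairs (-0.586 to 0.534, 33 over 0.1). For other numbers it was -0.004 over 322 pairs (-0.585 to 0.649, 70 over 0.1). These values do not settle whether rats of the same number were paired. With a replicate block and no lot term the counts were 5 at 8 h of mercuric chloride, 2 after cisplatin, 2 after sham surgery and 4 from 2 h to 8 h of mercuric chloride.

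The small number of rats, the 2 normal rats of lot 2, the assumed lots and a floor near the level of Csrp3, Cgn and the second Pvr probe in normal kidney limit the folds, and differences across lots are the least certain.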
